A study of Octopus bimaculoides with 16 samples.

Results

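In Octopus bimaculoides, a set of 129 genes was abundant in 4 tissues that face the water (dissociated sucker rim cells, olfactory organ, mantle skin and whole sucker cup), and lower in eye, optic lobe and statocyst, with reads of each still found in the eye. They are 0.873% of 14783 genes that had a read somewhere, and 129 of 15842 rows in the deposited table. A gene was a member if each of the 4 surface tissues had at least 10 CPM (reads scaled to a library total of 1000000), if each of them was at least 4-fold above each of optic lobe, eye and statocyst on CPM + 1, and if the eye itself had at least 10 CPM. The whole sucker cup entered this rule as the mean of its 2 libraries. The members were thus chosen by their levels in these same libraries, so the direction between surface and comparison tissues is a description and was not tested.

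The series measured messenger RNA of dissected organs and tissues by bulk RNA sequencing. Its 16 samples are 8 libraries on 2 lanes each, from 7 tissues. Rim cells were dissociated, and their library's title names 8 suckers. Olfactory organ, mantle skin, eye, optic lobe (the part labelled brain) and statocyst tissue had 1 library each, and whole sucker cups from arm R1 had 2, labelled automated and manual. The labels used here give no animal, age, sex or treatment, and do not say whether both cup libraries came from separate suckers. Rim cells were sequenced deepest, to 36916825 reads (1 read was 0.0271 CPM), and mantle skin least, to 4782744 reads (0.209 CPM); optic lobe had 5373482 reads (0.186 CPM). Since 6 of the 7 tissues had no replicate, a gap between tissues cannot be weighed against the spread of animals or dissections. The intervals given are 95% intervals of counting error. Neither the table nor the reference table names the proteins these identifiers encode, so marker genes could not be used to check the tissue labels, and no role is given for any member.

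Octopus skin, sucker and olfactory organ share an outer epithelium with mucus cells and scattered sensory cells that meets the sea water. The rim of the sucker holds receptor cells for touch and taste, and the olfactory organ is a small sensory patch near the mantle opening. The eye is a camera eye with retina, lens and iris under folds of skin. The optic lobe is nervous tissue that receives the retina's axons, and the statocyst is the fluid-filled organ of balance. In bulk tissue, fewer cells of a type and less RNA per cell cannot be told apart, and CPM is not corrected for transcript length, so levels are compared here between tissues within a gene.

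The members took a larger share of the reads in surface tissues than in comparison tissues, a direction that the rule fixes. They made up 8.88% of rim cell reads, 9.98% of olfactory organ reads, 13.5% of mantle skin reads (95% Wilson interval 13.48 to 13.54%) and 9.48% and 9.39% in the automated and manual whole sucker libraries. In the eye they took 0.422% (0.418 to 0.425%), in optic lobe 0.152% and in statocyst 0.155%. A single gene, LOC106873795, held 3.85% of all reads of mantle skin, and without it the members' share there was 9.66%. The 10 members with the most reads in a library held 55.0% of the members' reads in mantle skin and 34.7% of them in the eye. The median member had 287 CPM in rim cells, 320 CPM in olfactory organ, 315 CPM in mantle skin, 238 and 247 CPM across the automated and manual cups, 19.1 CPM in eye, 1.30 CPM in optic lobe and 3.10 CPM in statocyst.

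**Figure D1:**
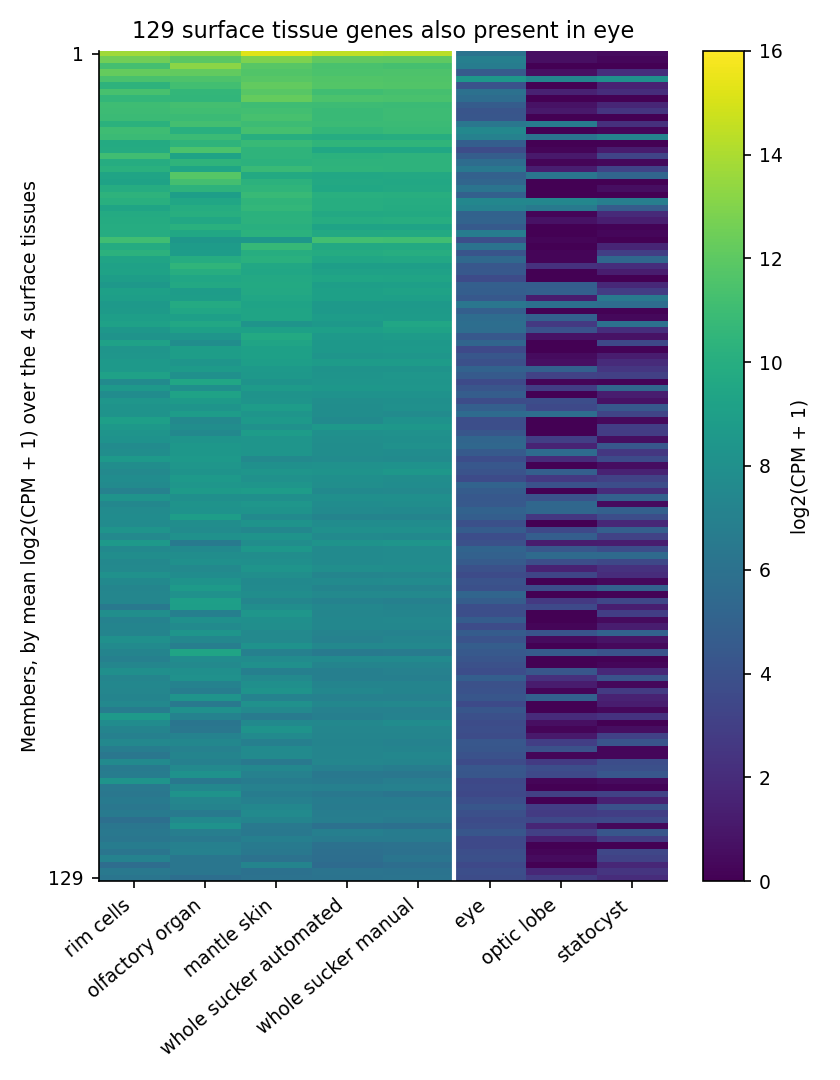
Level of each of the 129 members (rows, ordered by mean log2(CPM + 1) over the 4 surface tissues) in the 8 libraries (columns), as log2(CPM + 1). The 5 surface libraries left of the white line are high in every row by the rule. The eye runs from 10.3 to 352 CPM (median 19.1 CPM), above the floor of 10 CPM that the rule sets there. Optic lobe and statocyst have no such floor and vary from no read to over 100 CPM.

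LOC106873795 took the most reads of the set. It had 13440 CPM in rim cells, 9783 CPM in olfactory organ, 38543 CPM in mantle skin and 22601 and 20696 CPM across the automated and manual cups, against 67.4 CPM in eye, 3 reads in optic lobe and 6 reads in statocyst. It was therefore highest in skin, at 1.77 times the pooled cup level (1.76 to 1.78) and lowest of the surface tissues in olfactory organ, at 0.448 times the cup (0.446 to 0.451). The eye held 0.175% of the skin level (0.163 to 0.187%), the lowest eye-to-skin percentage among the members.

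LOC106882335 had 5857 CPM in rim cells, 3758 CPM in olfactory organ, 7470 CPM in mantle skin and 4351 and 4130 CPM across the automated and manual cups, against 119.9 CPM in eye and 3 reads in each of optic lobe and statocyst. LOC106878182 had 2410 CPM in rim cells, 9575 CPM in olfactory organ, 3614 CPM in mantle skin and 2675 and 2517 CPM across the automated and manual cups, against 103.5 CPM in eye and no read in optic lobe or statocyst. Both kept a step between eye and the other comparison tissues, but their surface order differed: LOC106882335 was highest in skin and LOC106878182 in olfactory organ, 3.67 times the cup (3.63 to 3.71). With 0 reads, the exact 95% interval reaches up to 0.686 CPM in optic lobe and 0.243 CPM in statocyst.

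LOC106878254 stood out for low rim cells. It had 1277 CPM in rim cells, 2269 CPM in olfactory organ, 4530 CPM in mantle skin and 3320 and 3273 CPM across the automated and manual cups, against 15.7 CPM in eye, no read in optic lobe and 28 reads in statocyst. Its rim level was 0.387 times the cup level (0.382 to 0.391), the lowest such ratio in the set.

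The eye level of the members was mostly low. It lay under 20 CPM for 67 members, between 20 and 50 CPM for 44 and at 50 CPM or more for 18, of which 8 had 100 CPM or more. For 115 of the 129 members the lower 95% counting limit of the eye was also at or above 10 CPM. The 5 members with the most eye reads were LOC106882630, LOC106875179, LOC106879700, LOC106879293 and LOC106872318, with 352, 180, 169, 136 and 131 CPM in eye. They did not share one pattern in the other comparison tissues. For example, LOC106882630 had 2733 CPM in rim cells, 3019 CPM in olfactory organ, 3632 CPM in mantle skin and 3276 and 3027 CPM across the automated and manual cups, against 352 CPM in eye, 145.5 CPM in optic lobe and 263 CPM in statocyst. LOC106875179 had 2049 CPM in rim cells, 1099 CPM in olfactory organ, 2472 CPM in mantle skin and 1521 and 1726 CPM across the automated and manual cups, against 179.6 CPM in eye, no read in optic lobe and 3 reads in statocyst. The first of these genes was thus detected in all 7 tissues at over 100 CPM, and the second was nearly absent from optic lobe and statocyst.

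Relative to skin, the eye level of the members varied widely. The median was 6.43% of the mantle skin level, the middle 50% of members lay between 3.66 and 10.1%, and the range was from 0.175% in LOC106873795 to 22.1% in LOC106878995 (18.7 to 26.02%), a 126-fold span; the gene at the upper end was picked after its values were seen. The upper end is set by the 4-fold rule, while the lower end is open for genes that are abundant in skin. The eye had under 1% of the skin level for 6 members and 10% or more for 33. Against the whole sucker cup the median was 8.78% and the span 74.9-fold. Across the 129 members, eye and skin CPM had a Spearman's rho of 0.610, and across all 405 genes that meet the surface tissue rule whatever their eye level rho was 0.494. These are correlations across genes within the same 2 libraries. The rule bounds the eye value from above in both sets, and from below in the members only.

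**Figure D2:**
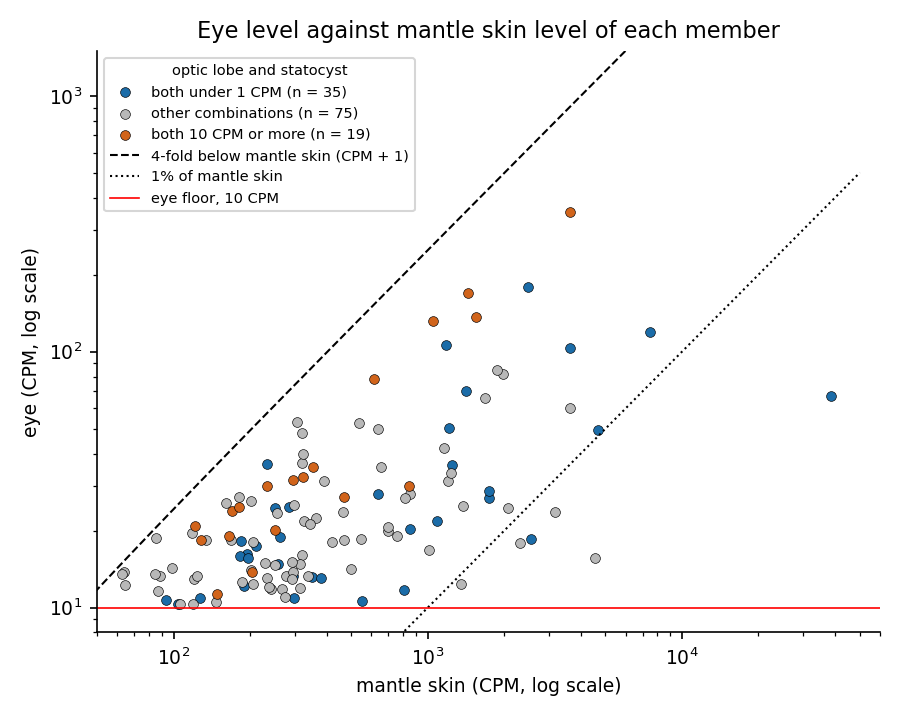
Eye level against mantle skin level of the 129 members, both in CPM on log axes, with colours for the members' state in optic lobe and statocyst. The points spread from under the dotted line of 1% of the skin level (6 members) up to the dashed line of the 4-fold rule, and genes under 1 CPM in both other comparison tissues (blue) and at 10 CPM or more in both (orange) overlap in eye level.

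Optic lobe and statocyst had only an upper bound in the rule, and the members divided into several patterns there. Both tissues lay under 1 CPM for 35 members and both reached 10 CPM for 19. Optic lobe was under 1 CPM while statocyst had 1 to 10 CPM for 25 members, and both had 1 to 10 CPM for 18. The remaining combinations were optic lobe at 10 CPM or more with statocyst at 1 to 10 CPM (13 members) or under 1 CPM (4 members), optic lobe at 1 to 10 CPM with statocyst at 10 CPM or more (11) or under 1 CPM (3), and optic lobe under 1 CPM with statocyst at 10 CPM or more (1). In all, 37 members had no read in optic lobe and 9 had none in statocyst, whose library was deeper. No read in either was found for 7 members. The eye was the highest of the 3 comparison tissues for 104 members, optic lobe for 14 and statocyst for 11. This order is favoured by the rule, which demands a minimum in the eye and none in the others. For 57 members the eye was at least 4-fold above both optic lobe and statocyst. The eye floor favours this count too. For this count, the order of the 3 tissues and the combinations above, shares over all genes at 10 CPM or more in eye were not computed. Whether these patterns differ from those of other genes is therefore not known.

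The 35 members under 1 CPM in both optic lobe and statocyst took 7.59% of the reads of mantle skin and 0.125% of those of the eye. Their eye level had a median of 18.9 CPM and was 4.48% of the skin level at the median, with a range from 0.175 to 15.6%. The 19 members at 10 CPM or more in both took 1.22% of the skin reads and 0.121% of the eye reads. Their median eye level was 29.8 CPM and 10.7% of the skin level, with a range from 3.55 to 17.1%. The 2 ranges of eye-to-skin percentages overlap. Among the few with 1 of the tissues apart, LOC106884149 had 497 CPM in rim cells, 489 CPM in olfactory organ, 695 CPM in mantle skin and 543 and 530 CPM across the automated and manual cups, against 20.6 CPM in eye, 1.30 CPM in optic lobe and 86.6 CPM in statocyst. The reverse order was seen in LOC106873159, with 1207 CPM in rim cells, 2399 CPM in olfactory organ, 1969 CPM in mantle skin and 1951 and 1929 CPM across the automated and manual cups, against 81.7 CPM in eye, 99.2 CPM in optic lobe and 3.56 CPM in statocyst.

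**Figure D3:**
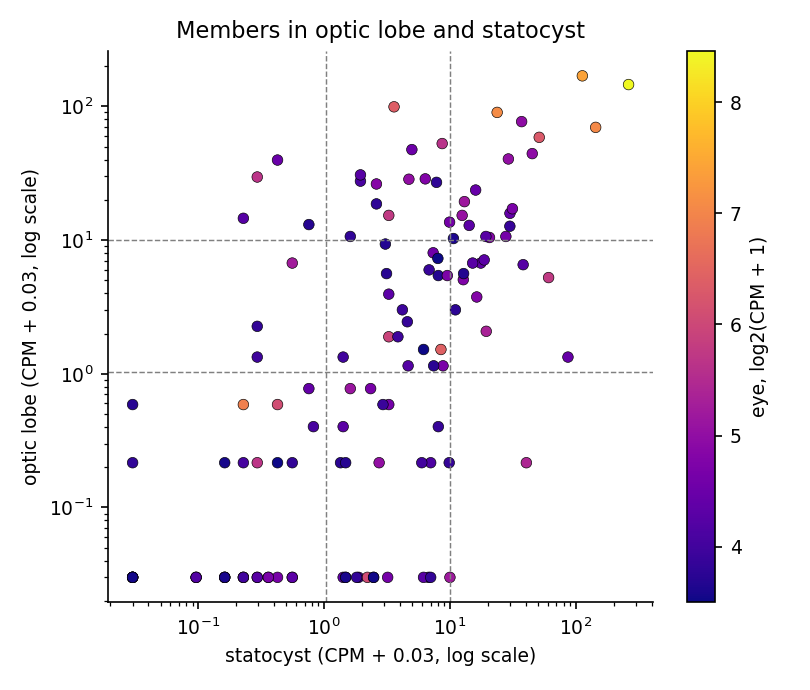
Optic lobe against statocyst level of the 129 members, both as CPM + 0.03 on log axes, coloured by log2(CPM + 1) in eye; dashed lines mark 1 and 10 CPM, and points of equal low read numbers overlap. The members fill the plane from no read in either tissue (7 members) to over 100 CPM in both, with 35 in the lower left and 19 in the upper right field.

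Among the 4 surface tissues the rule sets no order. The members were highest in mantle skin (58), olfactory organ (48) or rim cells (21), and in whole sucker cup for 2. The lowest surface tissue was rim cells for 47 members, olfactory organ for 32, whole sucker cup for 39 and mantle skin for 11. These counts were not computed over all genes. The cup is a mean of 2 libraries and the other tissues are single libraries. With median-of-ratios size factors in place of CPM, which lower olfactory organ by 0.23 and raise the automated and manual cups by 0.16 and 0.12 on the log2 scale, 124 genes met the rule. Of these, 61 were then highest in mantle skin, 33 in olfactory organ, 18 in rim cells and 12 in whole sucker cup. The surface levels were close together for most members. The highest and lowest surface tissue differed by less than 2-fold for 66 members and by 4-fold or more for 8, with a median of 1.99-fold and a maximum of 6.35-fold.

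Olfactory organ lay above whole sucker cup for 80 of the 129 members, and for 5066 of the 7268 genes that reached 10 CPM in both tissues. Rim cells lay above it for 72 members and for 4866 of 7399 such genes. Mantle skin lay above it for 109 members, and for 5425 of the 7358 genes that reached 10 CPM in both tissues. The median log2 ratio of skin over cup on CPM + 1 was 0.44 in the members and 0.20 in those 7358 genes. Size factors shift this ratio by nearly the same amount in members and in all other genes. The difference was mostly below 2-fold: 5 members (3.88%) were at least 2-fold higher in skin, against 1.81% of those genes, and 1 member was at least 2-fold lower, against 1.43%. Olfactory organ was at least 2-fold above the cup for 24 members (18.6%, against 12.3% of 7268 genes) and at least 2-fold below it for 6 (4.65%, against 4.4%). Its median log2 ratio of 0.27 was close to that of all those genes, 0.32. With size factors, 14 of the 124 genes were higher in olfactory organ and 14 lower. Rim cells were at least 2-fold above the cup for 5 members (3.88%, against 8.56% of 7399 genes) and below it for 2 (1.55%, against 2.7%). Their median log2 ratio was 0.05, and 0.19 over all those genes. With size factors, 2 were higher and 5 lower in rim cells, and 2 higher and 2 lower in skin. The counts also moved with the cup library used. Shares over all genes were not computed with size factors or with a single cup library. The counts at those settings therefore show only how they depend on the setting. Against the manual cup library by itself, 2 members were at least 2-fold higher in rim cells, and 3 were higher and 2 lower in skin; against the automated library by itself, 1 was lower in rim cells. The rule sets a lower bound on each of the 4 surface tissues and no upper bound. Less than 2-fold from the cup in either direction were 123 of 129 members in skin, against 7120 of 7358 genes. In olfactory organ they were 99 members, against 6057 of 7268 genes, and in rim cells 122, against 6566 of 7399. The cause of these differences was not tested.

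**Figure D4:**
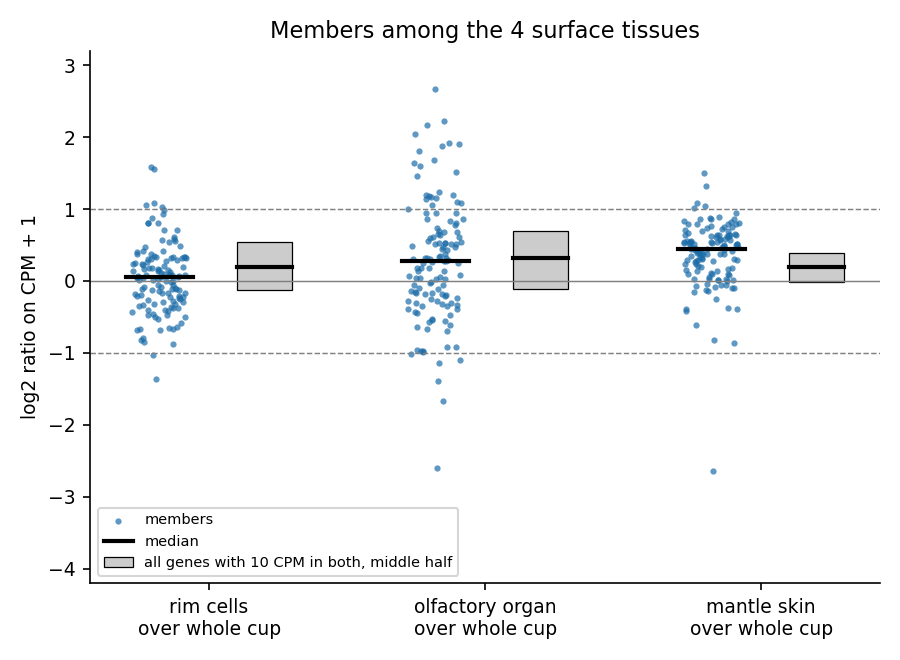
Log2 ratio on CPM + 1 of rim cells, olfactory organ and mantle skin over whole sucker cup; blue points are the 129 members with their median as a black line, and grey boxes span the middle 50% of genes at 10 CPM or more in both tissues, with their median. The members' median lies above that of all genes for skin (0.44 and 0.20), near it for olfactory organ (0.27 and 0.32) and below it for rim cells (0.05 and 0.19).

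Of the members named for the widest surface range, all but LOC106869024 were highest in olfactory organ. LOC106869024 was highest in whole sucker cup. LOC106882833 had the widest range, with 145.5 CPM in rim cells, 638 CPM in olfactory organ, 121.9 CPM in mantle skin and 97.5 and 101.6 CPM across the automated and manual cups, against 20.8 CPM in eye, 23.6 CPM in optic lobe and 15.96 CPM in statocyst. Its olfactory organ level was 6.43 times the cup level (6.13 to 6.75). LOC106883127 was likewise highest in olfactory organ, with 653 CPM in rim cells, 3512 CPM in olfactory organ, 844 CPM in mantle skin and 769 and 793 CPM across the automated and manual cups, against 29.98 CPM in eye, 76.9 CPM in optic lobe and 37.1 CPM in statocyst. LOC106876403 and LOC106879320 were also highest there, with 496 and 288 CPM in olfactory organ, against 233 and 88.4 CPM in mantle skin.

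A different form was seen in LOC106869024. It had 2167 CPM in rim cells, 361 CPM in olfactory organ, 350.4 CPM in mantle skin and 2250 and 2145 CPM across the automated and manual cups, against 13.2 CPM in eye, 1 read in optic lobe and none in statocyst. Both kinds of sucker sample were thus well above the other surface tissues: skin was at 0.159 times the cup level (0.151 to 0.167) and olfactory organ at 0.163 times (0.159 to 0.168). It was the single member at least 4-fold lower in skin than in cup.

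The automated and manual cup libraries gave nearly the same values for the members. The median fold between them was 1.04, and 1.07 over 7833 genes that reached 10 CPM there. LOC106875974, picked out after its values were seen, was the exception. Its automated library had 368 CPM and its manual library 711 CPM, a manual-to-automated ratio of 1.93. It had 569 CPM in rim cells, 781 CPM in olfactory organ and 305 CPM in mantle skin, against 53.1 CPM in eye, 5.21 CPM in optic lobe and 60.7 CPM in statocyst, and met the rule with either cup library left out. No other member differed by 1.5-fold between the cups, and 7 differed by 1.2-fold or more.

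The members are part of 405 genes (2.74% of genes with a read) that meet the surface tissue rule whatever their eye level. Of these, 173 had 1 to 10 CPM in eye and 103 less than 1 CPM. A member needs at least 43 CPM in every surface tissue to stay 4-fold above an eye level of 10 CPM, so higher surface levels follow from the rule. Among the 277 surface genes with 43 CPM or more in all 4 tissues, the eye had at least 10 CPM for 129, from 1 to 10 CPM for 104 and under 1 CPM for 44. High surface levels therefore did not always come with 10 CPM or more in eye. LOC106869698, chosen after its values were seen, had 974 CPM in rim cells, 4319 CPM in olfactory organ, 674 CPM in mantle skin and 973 and 978 CPM across the automated and manual cups, against 1 read in eye and none in optic lobe or statocyst.

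Of the 405 genes, 83 were under 1 CPM in eye, optic lobe and statocyst alike. The surface tissues of the members were closer together than those of these 83 genes: a range of 4-fold or more was found for 6.20% of members and 33.7% of the 83 genes, and a range under 2-fold for 51.2% and 25.3%. Mantle skin was the highest surface tissue for 45.0% of members and 27.7% of the 83 genes, and whole sucker cup for 1.55% and 10.8%. All 276 surface genes that are no members lay nearer to the members. A range of 4-fold or more was found for 23.2% of them and under 2-fold for 33.0%. Skin was highest for 30.8% of the 276 genes and cup for 6.52%. These shares depend on the scaling. With size factors, a comparison chosen after seeing the data, skin was highest for 49.2% of 124 members and 34.1% of 82 silent genes, and cup for 9.68% and 17.1%. The share with a range of 4-fold or more was then 6.45% of members and 35.4% of silent genes. The median skin level was 315 CPM in the members and 73.4 CPM in the 83 genes, and no test separates these differences from that in level.

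The rule cuts through a continuous range of values. Just inside the 4-fold limit, the smallest fold between a surface and a comparison tissue was 4.08 for LOC106882833, and 4.10 for both LOC106878371 and LOC106882348. Just outside, it was 3.99 for LOC106877798, 3.88 for LOC106875989 and 3.87 for LOC106876330. Just above the eye floor, LOC106880778 and LOC106879818 had 10.3 CPM in eye and LOC106868960 had 10.4 CPM. Just under it, LOC106880743 had 9.97 CPM, LOC106870460 had 9.88 CPM and LOC106884313 had 9.80 CPM. At the other extreme, the smallest fold was 143 for LOC106873795, 117 for LOC106877512, 102 for LOC106881162, 97.8 for LOC106883663 and 76.6 for LOC106877509, and its median over the members was 7.27.

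Gene position was not used by the rule. The reference assembly ASM119413v2 lists 111 of the 129 members and places 110 on chromosomes, 28 of which hold a member, among 13929 measured genes. Which build the authors used is unknown here, so the assembly served for gene order and overlaps and no positions are stated. In that order, 13 members (11.8%) stood directly next to another member, in 5 pairs and 1 group of 3, while 1.53% of all placed genes stood next to a member. A gene of the wider surface set was the next gene for 32 members (29.1%) and for 70 of 225 placed surface genes that are no members (31.1%), against 4.58% of all placed genes. Neighbours can be copies of one another. The processing notes name kallisto without version or annotation, and the deposited values do not show how many reads similar sequences shared. Similar values of neighbours carry that uncertainty.

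The group of 3 was LOC106875178, LOC106875179 and LOC106875182. All had no read in optic lobe and at most 5 reads in statocyst, and their eye levels were 13.1, 179.6 and 106.5 CPM. LOC106875182 had 971 CPM in rim cells, 735 CPM in olfactory organ, 1178 CPM in mantle skin and 820 and 827 CPM across the automated and manual cups. LOC106875178 had 521 CPM in rim cells, 187 CPM in olfactory organ, 381 CPM in mantle skin and 205 and 285 CPM across the automated and manual cups. Olfactory organ was the lowest surface tissue for each of the 3. Rim cells were the highest for LOC106875178, and mantle skin was the highest for the other 2.

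The pairs were alike in some tissues and apart in others. LOC106873159 and LOC106873158 both had more in optic lobe than in eye, with 81.7 and 16.1 CPM in eye and 99.2 and 27.5 CPM in optic lobe, and both were low in statocyst, at 3.56 and 1.91 CPM. LOC106870695 and LOC106870694 each had 1 read in optic lobe and were highest in mantle skin, at 1196 and 236 CPM. LOC106869762 and LOC106868257 had no read in optic lobe, were highest in olfactory organ, and had 36.3 and 18.9 CPM in eye. The pair LOC106880590 and LOC106884149, which both overlap LOC106868831 in the reference, differed in statocyst: their eye levels were 19.1 and 20.6 CPM, while statocyst had 3.23 CPM of the one and 86.6 CPM of the other.

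**Figure D5:**
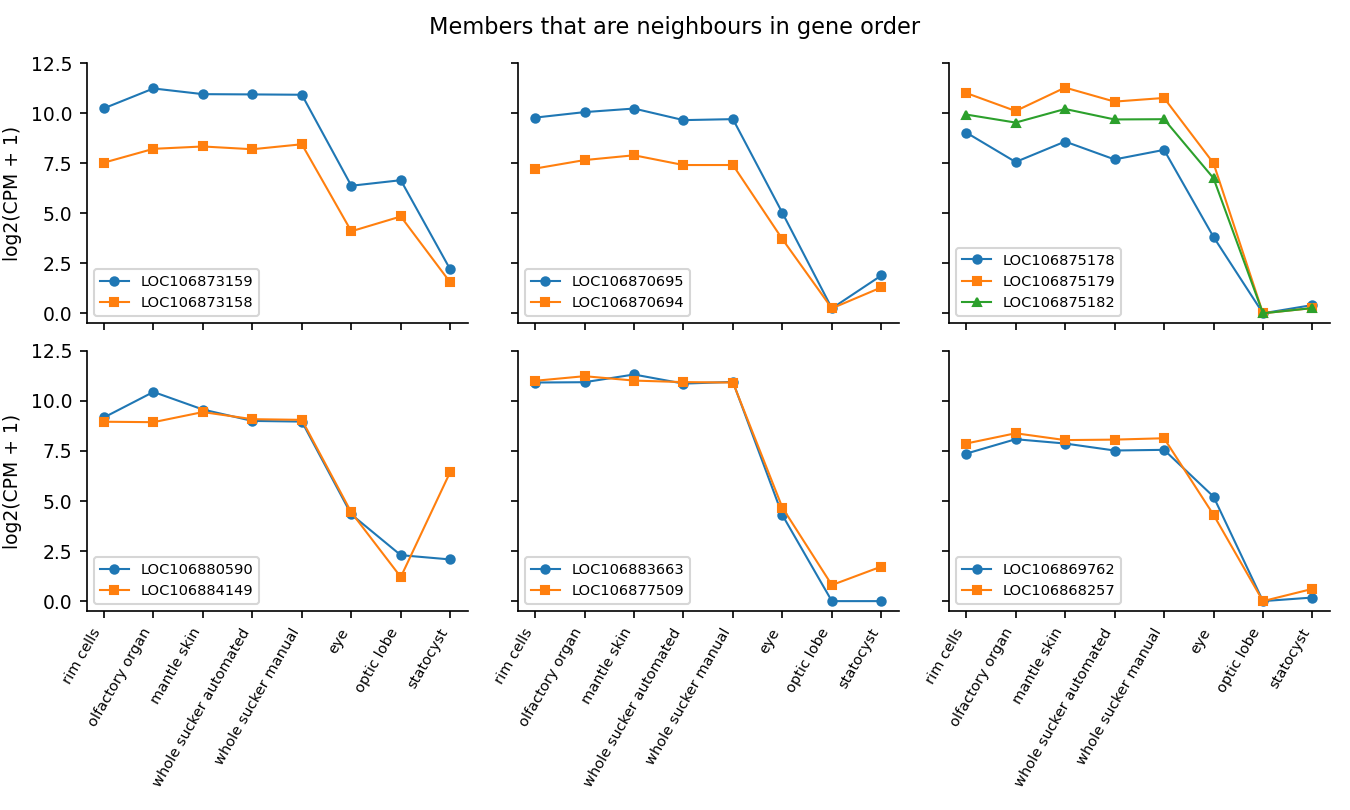
Profiles of the 13 members that are direct neighbours of another member in gene order, as log2(CPM + 1) in the 8 libraries, with 1 panel per neighbour group and 1 line per gene. Lines join libraries for reading and imply no order; LOC106880590 and LOC106884149 cross between optic lobe and statocyst, where they had 3.23 and 86.6 CPM.

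A last pair, LOC106883663 and LOC106877509, overlap in the reference, and LOC106877512 and the non-member LOC106877508 overlap LOC106877509 as well, so the division of reads among them is uncertain. LOC106883663 had 1933 CPM in rim cells, 1955 CPM in olfactory organ, 2553 CPM in mantle skin and 1861 and 1977 CPM across the automated and manual cups, against 18.6 CPM in eye and no read in optic lobe or statocyst. LOC106877509 had 2068 CPM in mantle skin and 24.4 CPM in eye. LOC106877512 had 3178 CPM in mantle skin and 23.6 CPM in eye. LOC106877508, named here for its place and after its values were seen, had 950 CPM in rim cells, 928 CPM in olfactory organ, 632 CPM in mantle skin and 484 and 501 CPM across the automated and manual cups, against 1 read in eye and none in optic lobe or statocyst. The 3 members of this cluster thus had 0.730%, 1.18% and 0.743% of their skin level in the eye, all in the low part of the members' range. In all, 13 members overlapped another measured gene in the reference.

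Over the 8 libraries, single members followed the mean log2(CPM + 1) profile of the set with a median Pearson's r of 0.977, the lowest being 0.854 for LOC106882833. Among 11015 other genes that reached 10 CPM somewhere, those most like that profile were LOC106878295 (r = 0.998), LOC106874783 (0.998) and LOC106876077 (0.998). All 3 met the surface tissue rule and had 5.39, 4.98 and 4.49 CPM in eye, under its floor. These values are descriptions over 8 libraries, and high values follow from the contrast between surface and comparison tissues that chose the members.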

How the data were processed

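Manual dissection, phenol-chloroform extraction and the Kapa mRNA HyperPlus kit are given per the labels' protocols. The submitters' processing notes name Trim Galore and kallisto, without versions, build or annotation. The deposited table has 1 column for each library of 2 lanes. The deposited values are log2(CPM + 1), a unit read from the values: after inversion each column summed to 1000000, and 100% of values were whole multiples of 1 read within 0.01 reads. Reads were recovered from these multiples. Whether they are direct counts or rounded estimates is not given, and the intervals treat them as direct counts.

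The rule was applied to the inverted CPM with a pseudocount of 1 CPM, using pandas 2.3.3, numpy 2.4.6 and scipy 1.17.1. Shares carry Wilson intervals; single levels (Poisson) and ratios of reads (conditional binomial, cups pooled) carry exact ones, all for counting error. The members, lists and comparisons were chosen with earlier results of these data known. With 1 library for every tissue but whole sucker cup, no test was made. Of 15842 identifiers, 14305 are in the reference table, with no protein names or sequences, so the planned comparisons of proteins, promoters and name-based lists were not made.

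Genes were named by a fixed rule: the 10 highest by mean log2(CPM + 1) over the surface tissues, the 5 highest in eye, the 5 with the smallest and the 5 with the largest smallest-fold, the 5 with the widest surface range, and neighbours; exceptions are said to be such. Of the named, LOC106882365 and LOC106868692 (smallest folds 4.13 and 4.15), and LOC106880038 and LOC106873796 (3641 and 4671 CPM in mantle skin, 60.4 and 49.5 CPM in eye) are not described further. Alternatives were other pseudocounts, floors, folds and scalings, each cup library left out, and rim cells not required. The code of the rule was run on simulated counts in which chosen genes were raised well past the fold threshold in the surface libraries. That run cannot show how the rule behaves near its thresholds or with spread between animals. Adding lower counting limits, and leaving out LOC106873795, were chosen after seeing the data.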

Additional observations from a re-analysis of the deposited data

How the results depend on the processing

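No paired analysis was possible because the numbers in the labels are lanes of 1 library, and the deposited table has 1 column per library. Of 129 members, 129 remained with a pseudocount of 0.1 CPM (131 genes), 112 with 5 CPM, 117 with size factors (124 genes), and 128 and 126 without the automated and manual cup library. Raising the floor to 20 CPM, a stricter demand, left 62 members, and a 3-fold threshold, a weaker demand, gave 200; counting limits required past both thresholds, chosen after seeing the data, left 100. The members' share of mantle skin and eye reads was 13.3% and 0.389% with a pseudocount of 5 CPM, 14.7% and 0.461% with a floor of 5 CPM, 10.8% and 0.325% with a floor of 20 CPM, 16.5% and 0.847% at 3-fold, 12.3% and 0.297% at 6-fold, 13.3% and 0.398% with size factors, 14.1% and 0.518% without the rim cell demand, 12.8% and 0.361% with counting limits, and 9.66% and 0.415% without LOC106873795. With a cup library left out, the eye share was 0.417 to 0.419%. With a floor of 20 CPM, 9.68% of members were highest in rim cells, 3.70% stood next to another member, and 0% were 2-fold higher or lower in rim cells, or 2-fold lower in skin, than in cup. At 3-fold, optic lobe and statocyst were both under 1 CPM for 19.5%. At 6-fold, the eye was the highest comparison tissue for 87.4% and 11.5% were 2-fold higher in olfactory organ than in cup. With size factors, 9.68% were highest in cup and 26.6% in olfactory organ, and 11.3% were 2-fold higher and 11.3% 2-fold lower in olfactory organ than in cup. Counting members at most 5 measured genes apart as neighbours gave 22.7%. The other 155 of 189 recomputed values stayed within 1.5 times the count or within the exact 95% interval of the percentage. These include the counts of 87 members at 6-fold and 183 genes with a floor of 5 CPM. For percentages of members that interval treats members as independent draws and is not counting error of reads. It is wide for small counts, so staying within it is a lenient mark. Unless stated, the cause was not tested. Comparisons of proteins and their features were not run. Depth limits low levels: 0 reads in optic lobe reach up to 0.686 CPM.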
